A study of Mus musculus with 3 samples.

Results

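The miR-106b-25 and miR-106a-363 clusters are the paralogues of the miR-17-92 cluster. Their mature miRNAs were measured in mouse plasma after a bout of exercise. The 8 members were found by name among the array's 1900 miRNA probes, each with 1 spot. In miR-106b-25 they were mmu-miR-106b-5p, mmu-miR-106b-3p, mmu-miR-93-5p and mmu-miR-25-3p. In miR-106a-363 they were mmu-miR-106a-5p, mmu-miR-18b-5p, mmu-miR-20b-5p and mmu-miR-363-3p. The prefix for mouse is left out below.

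The groups were mice after aerobic exercise, mice after resistance exercise and caged controls, all male C57BL/6 aged 8 weeks and fasted overnight. C57BL/6 is a common inbred strain. Blood was drawn 3 h after the bout, and the plasma of 3 mice was combined into 1 pool per group. Each pool was labelled with Cy5 and hybridized to 1 single-colour 3D-Gene array. No group has a replicate, so no test was run and no difference below carries an error over mice, pools or arrays. Pooling also hides how the 3 mice of a group differed. For arrays, their number limits the precision.

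A miRNA loads onto an Argonaute protein and represses messenger RNAs that pair with its seed, bases 2 to 8 from its 5′ end. miRNAs of 1 cluster are cut from a shared primary transcript, while miRNAs that share a seed have overlapping targets wherever they are encoded. The miR-17 family favours proliferation by repressing cell cycle inhibitors, and the miR-25 and miR-92 family represses the pro-apoptotic Bim. miRNAs in plasma are carried by vesicles, lipoproteins and Argonaute complexes, and blood cells are a main source of them. In plasma, more release, slower clearance and lysed blood cells cannot be told apart.

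The 3 hairpins of miR-106b-25 lie on the minus strand of chromosome 5, at chr5:138165321-138165818 of GRCm38.p6. This span of 498 bp lies within the bounds of Mcm7, the gene of a subunit of the replicative helicase. The 4 hairpins of the miR-106a-363 members lie on the minus strand of the X chromosome, at chrX:52741693-52742567, a span of 875 bp. RefSeq held the mature sequence of all 8 members in that build. They are shown because the seeds, in capitals, join members of different clusters:
miR-106b-5p: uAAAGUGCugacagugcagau
miR-93-5p: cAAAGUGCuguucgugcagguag
miR-106a-5p: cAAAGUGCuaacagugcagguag
miR-20b-5p: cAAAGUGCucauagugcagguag
miR-25-3p: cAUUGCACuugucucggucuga
miR-363-3p: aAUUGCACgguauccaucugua
miR-18b-5p: uAAGGUGCaucuagugcuguuag
miR-106b-3p: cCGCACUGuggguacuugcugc

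Of the 8 members, 4 carry the seed AAAGUGC of miR-17-5p, with a pair from each cluster. miR-25-3p and miR-363-3p share the seed of miR-92a-3p, and miR-18b-5p has that of miR-18a-5p. Similar probes can bind each other's targets, so the closest paralogues are shown as well, again with the seed in capitals:
miR-17-5p: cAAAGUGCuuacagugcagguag
miR-20a-5p: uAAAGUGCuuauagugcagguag
miR-92a-3p: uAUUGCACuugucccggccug
miR-18a-5p: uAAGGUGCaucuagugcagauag

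Counted from the 5′ end, miR-106a-5p differs from miR-17-5p by A10U alone. It differs from miR-20b-5p by A10C and C12U, and miR-20b-5p differs from miR-20a-5p by C1U and C10U. miR-18b-5p and miR-18a-5p differ by U18A and U20A. miR-25-3p matches miR-92a-3p at 18 of 21 bases, whereas miR-363-3p matches miR-25-3p at 9 of 22. How far the probes tell such near-identical RNAs apart was not tested.

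The aerobic array was the brightest before scaling. Over all 1900 miRNA probes, its median log2 difference from control was 0.15, against 0.01 for the resistance array. The 2 spike-in probes stood at 0.13 each on the aerobic array, and at 0.05 and 0.04 on the resistance array. Raw intensities below are not corrected for this. Median raw intensities over all miRNA probes were 114.9 in aerobic, 109.1 in resistance and 107.3 in control plasma. Blank spots averaged 92.91, 93.25 and 92.01 in that order. Detection required a raw intensity more than 2 SD of the blanks above their mean, which 1364, 1372 and 1431 probes reached. So did 4.02%, 20.1% and 78.7% of the 174 spots that were printed without a probe, in the same order. Values near the threshold therefore carry little weight, and 10 SD was used as a stricter mark. Levels of different probes were not compared, since brightness also depends on the probe.

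Differences are normalized log2 intensities of 1 pool minus those of another. The only error in the files is the scatter of repeated control spots. Spike-in spots, far brighter than the members, scattered with an SD of 0.11 in log2 units, pooled over the arrays, so that 2 SD of a difference between single spots is 0.32. The 5 control probes whose median raw intensity lay from 102.7 to 121.0 gave an SD of 0.18 and a limit of 0.51. These limits are called the spike limit and the dim limit. The brighter members, at raw intensities of 130.3 to 286.6, fall between the brightness of these control sets.

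**Figure D1:**
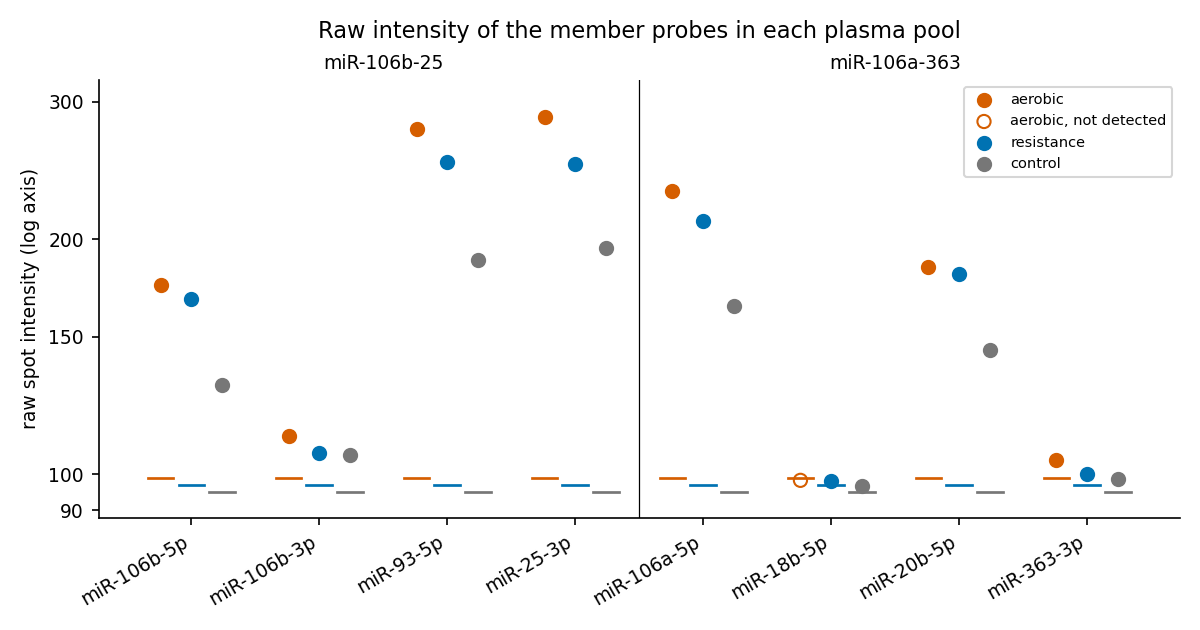
Raw spot intensity (log axis) of the 8 member probes in the aerobic, resistance and control pools, 1 spot each, with each array's detection threshold as a short line and the undetected spot as an open circle. The 5 brighter members are highest in aerobic and lowest in control plasma, and miR-106b-3p, miR-18b-5p and miR-363-3p lie near the thresholds.

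miR-106b-25 was brighter in both exercise pools than in control plasma. Its 5p members miR-106b-5p and miR-93-5p and the 3p member miR-25-3p were 1.27-fold to 1.34-fold higher in the aerobic pool and 1.35-fold to 1.42-fold higher in the resistance pool. The fourth member, miR-106b-3p, stood at the level of the control pool. In miR-106a-363, miR-106a-5p and miR-20b-5p were higher in both exercise pools, by 1.16-fold to 1.34-fold, and miR-18b-5p and miR-363-3p were too dim to compare well. None of these differences passed the dim limit.

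miR-93-5p represses the cell cycle inhibitor p21 in human cells and the glucose transporter GLUT4 in human adipocytes. Its raw intensity was 277.1 in aerobic, 251.0 in resistance and 188.1 in control plasma. The control pool was the lowest and the exercise pools lay close together. After normalization the difference from control was 0.39 for aerobic and 0.51 for resistance plasma. The authors' table gave folds of 1.38 and 1.54. Of all miRNAs compared, 1.67% stood higher than miR-93-5p in aerobic against control and 2.40% in resistance against control.

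miR-106b-5p, which also represses p21 in human cells, had raw intensities of 175.1 in aerobic, 167.5 in resistance and 130.3 in control plasma. Again the control pool was the lowest. The differences from control were 0.34 for aerobic and 0.46 for resistance plasma. Because this spot lay nearer to the blanks, the authors' table, with no offset added, gave larger folds of 1.54 and 1.82.

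miR-25-3p, a repressor of the calcium pump gene Serca2a in mouse heart, had raw intensities of 286.6 in aerobic, 249.6 in resistance and 195.2 in control plasma. The differences from control were nearly equal, at 0.42 for aerobic and 0.44 for resistance plasma. The authors' table gave folds of 1.35 and 1.42.

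miR-106b-3p, the other arm of the miR-106b hairpin, had raw intensities of 112.0 in aerobic, 106.5 in resistance and 105.8 in control plasma. It was detected on all arrays but lay below the 10 SD mark on each. The differences from control were 0.01 for aerobic and 0.00 for resistance plasma. A spot this dim is compressed by the offset of 50 added before the log, and in the authors' table the same differences were 0.00 and -0.15.

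miR-106a-5p, the member nearest in sequence to miR-17-5p, had raw intensities of 230.8 in aerobic, 211.2 in resistance and 164.2 in control plasma. Control was the lowest of the 3 pools. The differences from control were 0.34 for aerobic and 0.42 for resistance plasma, and the authors' table gave folds of 1.37 and 1.53.

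miR-20b-5p, described as a repressor of HIF1A and VEGFA in human breast cancer cells, had raw intensities of 184.3 in aerobic, 180.3 in resistance and 144.3 in control plasma. The pools kept the same order as for miR-106a-5p. The difference from control was 0.21 in aerobic plasma, within the spike limit, and 0.35 in resistance plasma, beyond it. The aerobic difference was 0.36 with a normexp offset of 0, 0.39 with blank subtraction and 0.34 in the authors' table. The spike limit was computed with the offset of 50, so it does not apply to these 3 values. Without scaling the aerobic difference was 0.48, beside a median of 0.20 over all miRNAs compared. The authors' folds were 1.26 and 1.56.

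miR-363-3p had raw intensities of 104.4 in aerobic, 100.1 in resistance and 98.6 in control plasma. On the control array 74.7% of the spots without a probe were dimmer than miR-363-3p. The differences from control were 0.03 and 0.01. In the authors' table, with no offset, the aerobic difference was 0.33 and the resistance difference -0.03.

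miR-18b-5p, a repressor of MDM2 in human melanoma, was the dimmest against its thresholds, at raw intensities of 98.3 in aerobic, 98.0 in resistance and 96.7 in control plasma. It was not detected in aerobic plasma, where its spot fell 1.76 SD above the blanks. On the control array just 55.2% of the spots without a probe were dimmer. The resistance difference from control was 0.01, and the bounds against the aerobic pool, at least 1.01-fold in each case, lay far within spot scatter.

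**Figure D2:**
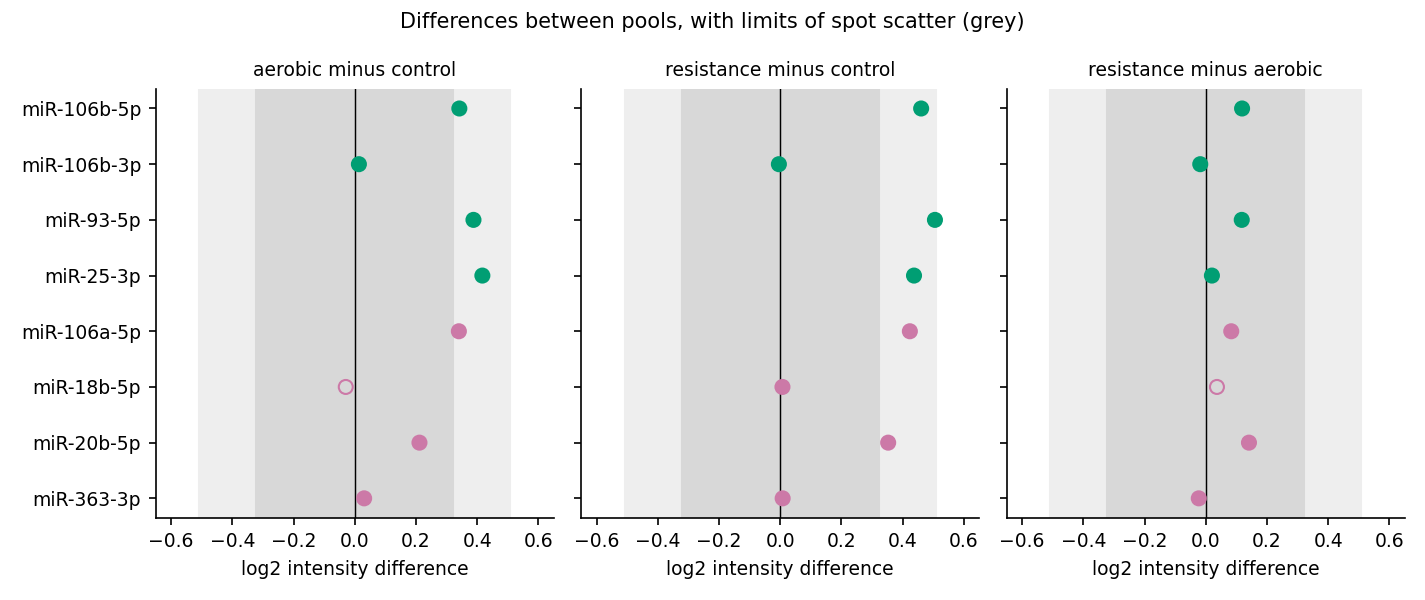
Normalized log2 intensity differences of the 8 members in the 3 comparisons, miR-106b-25 in green and miR-106a-363 in pink, with the spike limit (0.32) in dark grey and the dim limit (0.51) in light grey. Open circles were not detected in the aerobic pool. The brighter members sit to the right of 0 against control, and no member leaves the dark band in resistance minus aerobic.

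Counted over the list, 7 of the 8 members could be compared in aerobic against control. All 7 were higher, as were 48.6% of all 1321 miRNAs compared, and 4 exceeded the spike limit, which 3.79% of all miRNAs did. Those 4 were miR-106b-5p, miR-93-5p, miR-25-3p and miR-106a-5p. The dim miR-106b-3p and miR-363-3p stood at just 0.01 and 0.03, and with median scaling at -0.02 and -0.01. The members' median was 0.34, against 0.00 over all miRNAs compared. Higher by more than the dim limit were 0 members and 0.606% of all miRNAs, and at least 2-fold higher were 0 members and 0% of all. Among probes over 10 SD on both arrays, 4 of the 5 members and 6.19% of all miRNAs were higher beyond the spike limit.

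In resistance against control all 8 could be compared. Of these 7 were higher, as were 44.2% of the 1336 miRNAs compared, but miR-106b-3p, miR-18b-5p and miR-363-3p all stood within 0.01 of control. For miR-18b-5p and miR-363-3p the sign was negative with median scaling and in the authors' table, where the differences were -0.08 and -0.03. The spike limit was exceeded by 5 members, those named for the aerobic pool and miR-20b-5p, and by 5.61% of all miRNAs. The median of the members was 0.39, against -0.01 over all. Higher by more than the dim limit were 0 members and 2.4% of all miRNAs, and at least 2-fold higher were 0 members and 0.225% of all. Among probes over 10 SD on both arrays, 5 of 5 members and 8.3% of all miRNAs were higher beyond the spike limit. Both comparisons use the same control array, so the aerobic and resistance values are not independent.

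The comparison of resistance with aerobic plasma subtracts no control value, although the control array entered the joint quantile normalization. Of the 7 members compared, 5 were higher in resistance plasma, as were 46.6% of the 1307 miRNAs compared, and all 7 lay within the spike limit, beyond which 1.91% of all miRNAs were higher and 1.3% lower. The differences ran from -0.02 for miR-363-3p to 0.14 for miR-20b-5p, with a median of 0.08 against -0.01 over all. The direction rests on the scaling. Raw intensities of the 5 brighter members were all lower in resistance than in aerobic plasma, and without scaling the median of the members was -0.15, beside -0.19 for all miRNAs compared. Spike-in spots before scaling were also dimmer on the resistance than on the aerobic array, at -0.07 and -0.10 for the 2 probes.

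The 2 clusters were then set side by side. In aerobic against control the median was 0.36 for the 4 miR-106b-25 members and 0.21 for the 3 comparable members of miR-106a-363, a gap of 0.15. In resistance against control the medians were 0.45 and 0.18, a gap of 0.27. That gap is over 4 members of miR-106a-363, because the dim miR-18b-5p could be compared there. Over the same 3 members as in aerobic against control, the miR-106a-363 median was 0.35. The larger gap in resistance than in aerobic plasma therefore rests on miR-18b-5p. In resistance against aerobic the cluster medians were 0.07 and 0.08. The files give no error for a difference of medians, and with a normexp offset of 0 the gap in resistance against control was 0.33. Spots under 10 SD on at least 1 array made up 1 of 4 members of miR-106b-25 and 2 of 4 of miR-106a-363. Among members over 10 SD on all arrays, 3 of miR-106b-25 and 2 of miR-106a-363, the medians were 0.39 and 0.28 in aerobic and 0.46 and 0.39 in resistance against control. Members of a cluster share a transcript and 4 share a seed, so they are not replicates of one another.

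**Figure D3:**
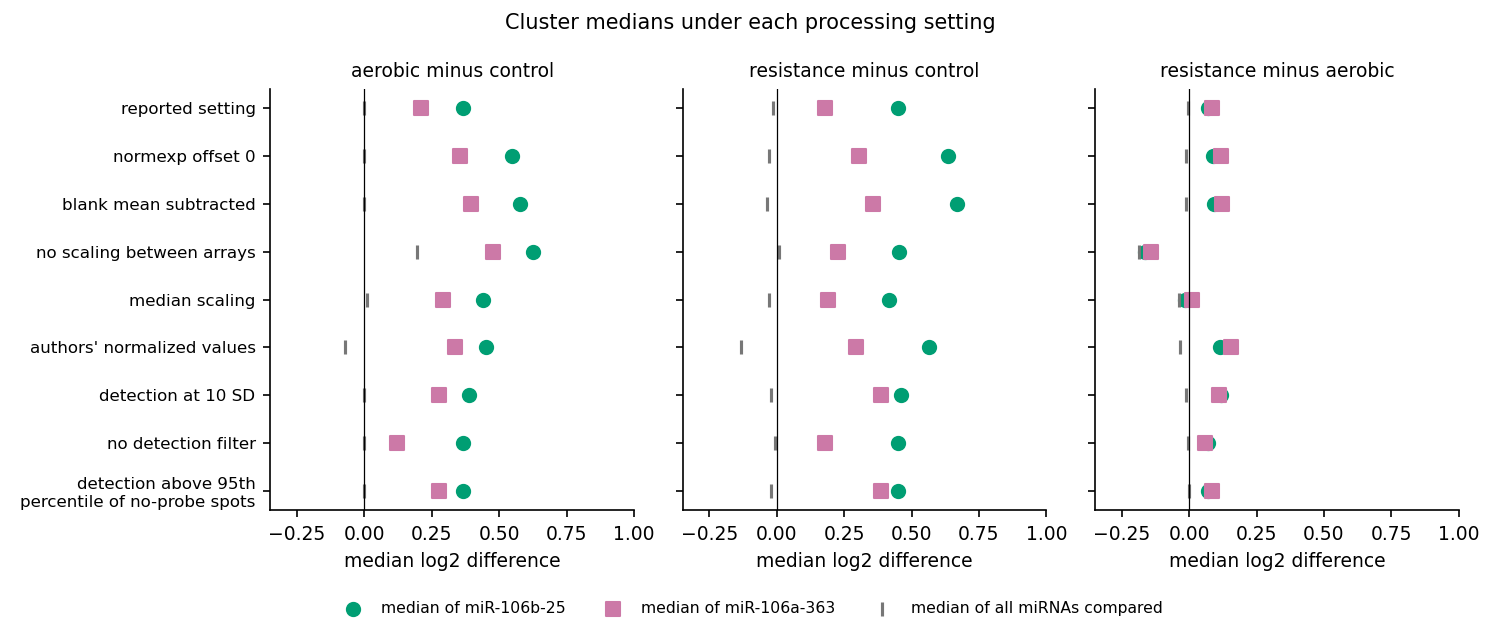
Median log2 difference of the miR-106b-25 members (green circles), the miR-106a-363 members (pink squares) and all miRNAs compared (grey bars) in the 3 comparisons, under the reported processing and each alternative. Both clusters stay above 0 against control in every setting shown, and in resistance minus aerobic both turn negative without scaling, and miR-106b-25 also lies just below 0 with median scaling.

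The members were also grouped by seed. The 6 AAAGUGC probes, 4 members plus miR-17-5p and miR-20a-5p of miR-17-92, were all over 10 SD on all arrays and all higher in both exercise pools. How far these near-identical probes read each other's RNA was not tested. The differences from control ran from 0.21 to 0.39 in aerobic and from 0.35 to 0.52 in resistance plasma. The spike limit was exceeded by 5 of 6 in aerobic and 6 of 6 in resistance plasma, with the 4 members counted again. Among all miRNAs over 10 SD on both arrays, 6.19% and 8.3% were higher beyond it. In the AUUGCAC group, miR-25-3p stood at 0.42 in aerobic and 0.44 in resistance plasma. Its paralogue miR-92a-3p, encoded both in miR-17-92 and beside miR-363 on the X chromosome, stood at 0.14 and 0.22, within the spike limit. miR-18a-5p, with the seed of miR-18b-5p, stood at 0.07 and 0.10. Its spot lay just 5.8 to 7.5 SD above the blanks, and the authors' table gave 0.41 and 0.45.

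**Figure D4:**
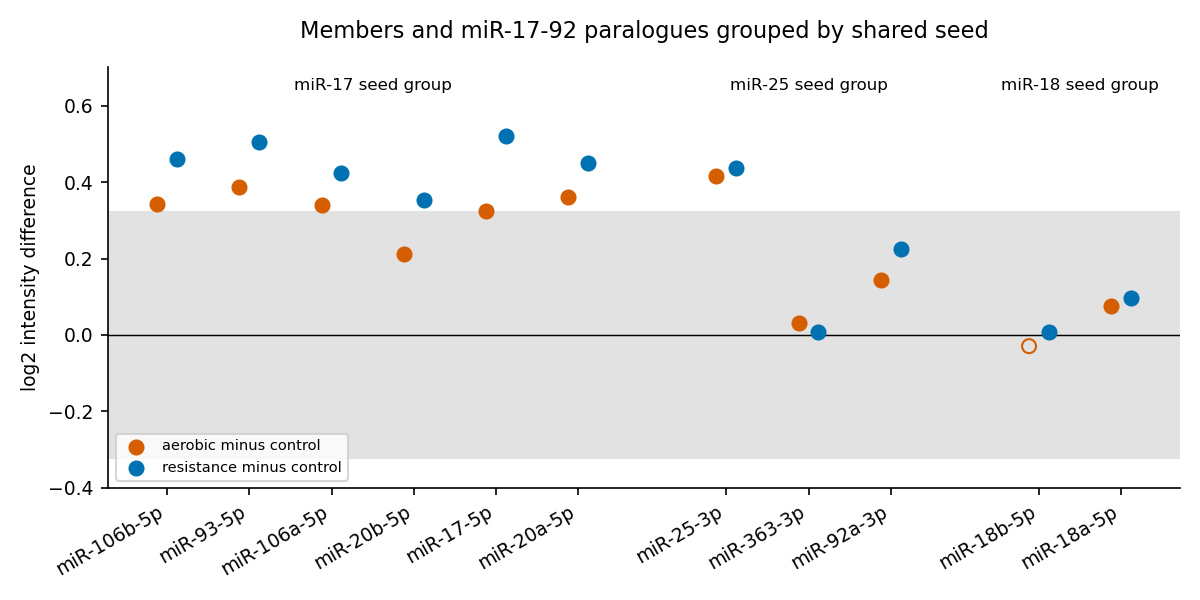
Normalized log2 difference from control (vertical axis) of the members and their miR-17-92 paralogues, grouped by shared seed, for aerobic and resistance plasma, with the spike limit of 0.32 in grey and an open circle where a spot was not detected. All 6 probes of the miR-17 seed group lie between 0.21 and 0.52, while the miR-25 group, which holds the dim miR-363-3p, spreads from 0.01 to 0.44.

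The wider miR-17-92 list includes miR-19b-3p and miR-92a-3p, which are also encoded within the miR-106a-363 span. It had 8 of 12 probes comparable in each comparison. Its median was 0.16 in aerobic against control, with 2 of 8 beyond the spike limit, and 0.23 in resistance against control, again with 2. Of all miRNAs compared, 3.79% and 5.61% were higher beyond that limit. Of 8 probes for the other arms of the member hairpins and of miR-19b-2 and miR-92a-2, 4 could be compared, with medians of 0.03 in aerobic and 0.05 in resistance against control and 0 beyond the spike limit. miR-25-5p, at raw intensities of 152.0, 129.9 and 127.4 in aerobic, resistance and control plasma, stood at 0.15 and 0.02. Its partner arm miR-25-3p, as given above, stood at 0.42 and 0.44.

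**Figure D5:**
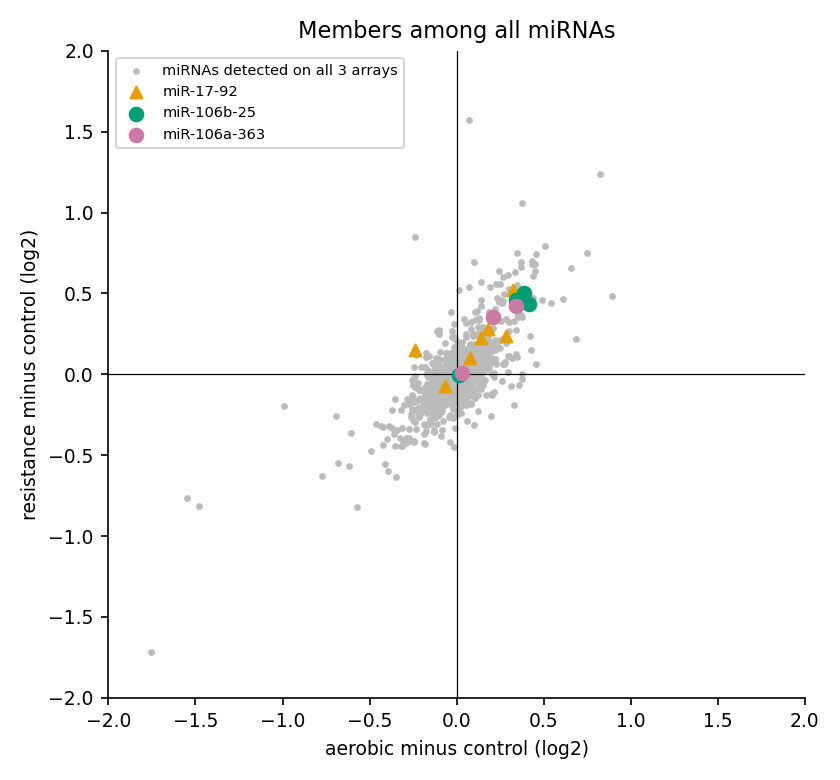
Log2 difference from control in aerobic (horizontal axis) and resistance plasma (vertical axis) for each miRNA detected on all 3 arrays (grey), with miR-106b-25 in green, miR-106a-363 in pink and miR-17-92 as orange triangles. The axes share the control array, which by itself draws points along the diagonal. The brighter members lie at 0.21 to 0.42 and 0.35 to 0.51, and miRNAs outside these clusters surround them.

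The miRNAs most alike in pattern were sought among 788 others over 10 SD on all arrays, by the distance between their differences from control, aerobic and resistance, and the cluster's medians. Those pairs of values cover just 3 pools and share the control. For miR-106b-25 the nearest were miR-15a-5p, miR-23a-5p, miR-27a-3p, miR-1249-5p and miR-144-3p, at distances of 0.007 to 0.060 log2 units. For miR-106a-363 the medians, over its 3 members detected on all arrays, were 0.21 and 0.35, the values of miR-20b-5p. Nearest to these were miR-8097, miR-125a-5p, miR-100-5p, the shared miR-199a-3p and miR-199b-3p probe and miR-148a-3p, at 0.015 to 0.067. Within a distance of 0.1 lay 13 and 11 miRNAs.

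Of 7 probes on the erythrocyte list 6 were detected on all arrays, miR-144-5p being detected on none. Of the 6, 4 were higher in both exercise pools than in control plasma. Higher than control were 48.6% of all miRNAs compared in aerobic and 44.2% in resistance plasma. The list's summed raw intensity above the blanks was 8196 in aerobic, 7340 in resistance and 4671 in control plasma. Most of that sum is miR-451a, with raw intensities of 5741 in aerobic, 5245 in resistance and 3056 in control plasma. The list's median difference from control was 0.30 in aerobic and 0.47 in resistance plasma, with miR-451a at 0.35 and 0.75, while miR-486a-3p stood at -0.17 and -0.32 and miR-486b-3p at -0.04 and -0.06. All 6 platelet probes were detected, with sums of 2595 in aerobic, 2563 in resistance and 1759 in control plasma. Their medians were 0.17 and 0.52. All 6 were higher than control in aerobic and 5 in resistance plasma, with miR-223-3p at 0.01 and -0.06. Of the 6 leukocyte probes 5, 6 and 5 were detected, with sums of 480.3, 473.6 and 333.5 in the same order of pools, and their medians were 0.13 in both comparisons. The liver list, with 3 of 4 probes detected, had sums of 318.3, 188.6 and 146.6 and medians of 0.20 and 0.14. Its probes differed, with miR-122-5p at 0.68 and 0.22, the aerobic value beyond the dim limit. miR-192-5p stood at 0.20 and 0.14 and miR-194-5p at 0.08 in both, all within the spike limit. The muscle list went the other way, with medians of -1.48 over 3 probes and -0.48 over 4. The part of blood cells in the members' differences was not tested.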

How the data were processed

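Plasma miRNA was profiled on 3 arrays, 1 per pool of 3 mice. The deposited scanner files give each spot's raw intensity, which is linear, and the authors' background-subtracted and globally normalized intensity, per the file headers. As the values show, the authors took off 1 background per array, emptied spots near it and scaled each array to a median of 25. Their value table repeats these normalized intensities to within 0.05. It is linear and not centred per miRNA. A miRNeasy kit was used for extraction and Cy5 for labelling, per the labels' protocols. The extraction label names cells as the source, but the source and tissue labels name plasma, which is taken as right here. For scanner and software, nothing is stated (not given in the sources used here). In the series text the chip is called human, whereas all miRNA probes carry mouse names.

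The background was the mean of 896 blank spots after trimming 5% at each end. Raw intensities were corrected with normexp (limma 3.58.1, R 4.3.3, offset 50), and after removal of control spots quantile normalization on the log2 scale was applied to the 1900 miRNA probes. The offset pulls differences of dim probes towards 0. QC-Probe spots, which differ in level under a single name, were left out of the dim limit. That limit and the detection rule based on spots without a probe were chosen after the data had been seen. Processing was tested on simulated data with changes of 2-fold or more and a scatter of 0.11 in log2 units. Differences as small as those of the members were not simulated. The members and lists were chosen with earlier results of these data known. Named were all members, the other arms of their hairpins, the miR-17-92 paralogues and, per cluster, the 5 miRNAs nearest in pattern. Alternatives were 7 planned ones and 1 added.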

Additional observations from a re-analysis of the deposited data

How the results depend on the processing

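Over 8 alternatives, both cluster medians stayed above 0 in aerobic and in resistance against control. The clusters' medians in aerobic against control, miR-106b-25 first, were 0.55 (normexp offset 0, miR-106b-25 alone), 0.58 and 0.39 (blank mean subtracted) and 0.63 and 0.48 (no scaling). That of all members was 0.51, 0.54 and 0.58 in the same settings. In resistance against control, miR-106b-25 stood at 0.64 with offset 0 and 0.67 with blank subtraction, and miR-106a-363 at 0.36 with blank subtraction and 0.39 with detection at 10 SD or above the spots without a probe, where miR-18b-5p and miR-363-3p drop out. The gap between clusters shrank to 0.072 and 0.061 under those detection rules, the second of which was chosen after seeing the data. It widened to 0.33 with offset 0 and 0.31 with blank subtraction, and in aerobic against control to 0.24 with no detection filter. All members stood at 0.58 with offset 0, 0.63 with blank subtraction and 0.56 in the authors' table. In resistance against aerobic, no scaling gave -0.16 for miR-106b-25, -0.14 for miR-106a-363 and -0.15 for all members, and median scaling gave -0.01 for miR-106b-25. Without scaling the median of all miRNAs compared was 0.20 in aerobic against control, 0.01 in resistance against control and -0.19 in resistance against aerobic.

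Counts of miRNAs at least 2-fold higher in aerobic plasma were 0 as reported, 2 with offset 0, 16 with blank subtraction, 4 without scaling and 18 in the authors' table, and lower 3, 9, 13 and 12 (no scaling left out). In resistance against control they were 3, 8, 18 and 15 higher and 1, 2, 13 and 24 lower, as reported, with offset 0, with blank subtraction and in the authors' table. In resistance against aerobic they were 2 higher as reported, 5, 13 and 11 in those settings and 1 each without scaling, with median scaling and at 10 SD, and 0 lower as reported, 11 with blank subtraction, 19 in the authors' table and 1 with no detection filter. No paired analysis was possible because each group has 1 array. Signal over background limits miR-106b-3p, miR-18b-5p and miR-363-3p most.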

Other observations

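Within miR-17-92, the paralogue of both clusters, the arms of the miR-17 hairpin lay apart. miR-17-5p had raw intensities of 237.2 in aerobic, 229.7 in resistance and 170.1 in control plasma, and miR-17-3p had 170.9, 189.7 and 169.8 in the same pools. In aerobic against control miR-17-5p stood at 0.32, just beyond the spike limit, and miR-17-3p at -0.24, within it. The raw intensity of miR-17-3p was not lower in aerobic than in control plasma, so its negative sign appeared only after normalization. In resistance against aerobic miR-17-3p stood at 0.38, beyond the spike limit, and miR-17-5p at 0.20. miR-19a-3p and miR-19b-3p, whose seed no member has, stood at 0.28 and 0.18 in aerobic against control, both within the spike limit. miR-19b-3p is encoded in miR-17-92 and also within the miR-106a-363 span on the X chromosome. miR-19a-3p stood at 0.24 in resistance against control. The authors' table, with no offset, gave it 0.91 in aerobic and 0.76 in resistance against control.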
